A study of Homo sapiens with 12 samples.

Results

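The IFIT family was followed here through its 4 members IFIT1, IFIT2, IFIT3 and IFIT5, taken by symbol from the 27788 gene symbols counted in 12 RNA-seq libraries. The libraries came from 2 human cancer cell lines, HCT116 (colorectal carcinoma) and U-87 MG (glioblastoma). In each line, 3 libraries of cells with GSTO1, the gene of glutathione S-transferase omega 1, mutated by CRISPR-Cas9 (KO) were compared with 3 libraries labelled WT, for wild type. The title of the study places type I interferon genes and tissue factor among the outcomes of GSTO1 deletion.

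Per the labels' protocols, both parental lines were made to express Cas9 from a lentivirus under blasticidin selection and then received tracrRNA with a crRNA for exon 2 of GSTO1 or a control crRNA without a target. KO cells were grown from single colonies that were screened for loss of GSTO1. The sources used here do not give the number of colonies per KO group, nor whether wild-type libraries came from untreated cells or from cells given the control crRNA. A property of the chosen colony and the loss of GSTO1 therefore cannot be told apart. Nothing in the labels states that replicates were separate cultures, so the p-values measure only how far these libraries spread, possibly for technical reasons.

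IFIT proteins are interferon-induced proteins built from tetratricopeptide repeats, which form a groove or surface that binds RNA. Some of them, IFIT1 among them, hold foreign RNA by its front end and keep it from being translated. In the usual pathway, an interferon binds its receptor, JAK kinases phosphorylate STAT proteins, and these join IRF9 to form ISGF3, which binds interferon-stimulated response elements in promoters. IRF factors downstream of RNA sensors can bind the same elements, and IFIT genes are among the first to be transcribed by either route. Epithelial and glial cells both carry this pathway.

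All 4 members lie on the plus strand of chromosome 10 within 119 kb, between 89302046 and 89420997 in GRCh38, in the order IFIT2, IFIT3, IFIT1 and IFIT5 by GENCODE release 44. The canonical transcripts span 89302046 to 89309271 for IFIT2, 89327997 to 89340968 for IFIT3, 89392623 to 89406487 for IFIT1 and 89414568 to 89420997 for IFIT5. Each has 2 exons, and the first holds only 5 coding bases, so nearly the whole protein is encoded in the second exon. The coding sequences are of like length, 1416 bases in IFIT2, 1434 in IFIT1, 1446 in IFIT5 and 1470 in IFIT3, without the stop codon. None of their exon bases overlapped an exon of another gene on either strand. Of all stretches of 50 bases, the read length, 1.27% of IFIT1 transcript sequence and 4.02% of IFIT3 transcript sequence also occurred in other genes' transcripts, against 0 in IFIT2 and IFIT5. Of the 54 such stretches of IFIT1, 38 were shared with IFIT1B. No such stretch was shared between the 4 members, so reads of one could not be counted for another by an exact match.

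The promoters are shown because they hold the letters of the element that ISGF3 and IRF factors bind, a feature that the choice of members did not use. RefSeq promoter windows on GRCh38.p14, from 250 bases before to 50 bases after a start site, matched 3 of the 4 members, IFIT1, IFIT3 and IFIT5, with 2 start sites for IFIT3. The core GAAANNGAAA and the longer form GAAANNGAAACT, which contains it, were searched on both strands. All matches lay on the minus strand, so the plus strand below, written 5′ to 3′, shows the core as TTTC, 2 free bases and TTTC. Capitals mark the core.
IFIT1, chr10:89392487-89392545: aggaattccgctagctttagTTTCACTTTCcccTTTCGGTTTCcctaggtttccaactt
IFIT3, first start site, chr10:89327821-89327904: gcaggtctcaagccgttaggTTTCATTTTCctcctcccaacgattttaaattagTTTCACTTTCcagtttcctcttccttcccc
IFIT3, second start site, chr10:89332415-89332487: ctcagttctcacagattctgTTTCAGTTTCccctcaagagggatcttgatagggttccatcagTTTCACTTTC
IFIT5, chr10:89414503-89414573: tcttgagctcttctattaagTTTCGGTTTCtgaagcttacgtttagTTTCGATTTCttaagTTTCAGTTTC
The core occurred in 3.57% of the 35116 promoter windows of all genes and the longer form in 0.273%. IFIT1 and both IFIT3 start sites each held 2 cores, 1 of them in the longer form. IFIT5 held 3 cores, all in the longer form, the last of which crosses the start site. IFIT1B, a further family gene between IFIT3 and IFIT1, held 0 of either. A match describes these letters only.

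Depth ran from 17814142 to 28097179 assigned counts per library. The check of the targeted gene followed the labels in every library: GSTO1 stood at 24.9% of the wild-type level in HCT116 KO libraries and at 18.4% in U-87 MG KO libraries. Markers of colon epithelium summed to 3242 to 3689 CPM (a depth-scaled count, adjusted for library composition) in HCT116, and to 19.9 to 21.4 CPM in wild-type and 10.8 to 12.0 CPM in KO libraries of U-87 MG. Among them the adhesion gene CDH1 was called higher in HCT116 KO, at a log2 fold change of 0.86, and the keratin gene KRT8 lower in U-87 MG KO, at -1.12. The colon markers VIL1, CDX1 and LGALS4 had at most 6 counts in any HCT116 library. Markers of glia and mesenchyme summed to 728 to 749 CPM in wild-type and 1278 to 1353 CPM in KO libraries of HCT116, and to 34155 to 36447 CPM in U-87 MG. Most of this was CD44 in HCT116, at means of 653 CPM in wild type and 1217 CPM in KO. In wild-type U-87 MG it was mostly FN1 and VIM, at means of 20241 and 9024 CPM. The glial markers SOX2 and S100B were at 0 in wild-type U-87 MG, and GFAP and OLIG2 at 0 in HCT116. GFAP and OLIG2 were low in U-87 MG too, at 0 to 3 and 14 to 34 counts in wild type and 1 to 3 and 8 to 12 in KO. The leukocyte markers CD3E, IL3RA and NKG7 were at 0 in every library. Leukocyte markers summed to 10.8 to 14.4 CPM in HCT116, and to 352 to 433 CPM in wild-type and 580 to 600 CPM in KO libraries of U-87 MG, where nearly all of it was CD68. Replicate 3 of both HCT116 groups and wild-type replicate 3 of U-87 MG stood apart from the other replicates, at a chi-square over its degrees of freedom of 3.46 to 9.31 against 1.48 to 2.38 between the others of those groups, and the members' log2 fold changes are given below with and without them. The mitochondrial ribosomal RNA gene RNR2 took 1.36 to 1.54% of counts in KO and 0.981 to 1.06% in wild-type libraries of HCT116, and 0.419 to 0.435% and 0.254 to 0.322% in U-87 MG. The part of these markers and of RNR2 in the differences below was not tested.

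All 4 IFIT genes were higher in KO than in wild-type HCT116 cells, and the 3 members IFIT1, IFIT2 and IFIT3 were raised far more than IFIT5. A gene was called where edgeR's adjusted p was under 0.05, the fold above 1.5 and the mean FPKM (a level per length and depth), taken over KO and wild-type libraries together, above 0.5. By this rule 4 of 4 members were called higher, against 7.82% of the 14068 genes tested, with 4.07% lower and 11.9% in either direction. The adjusted p alone was under 0.05 for all 4 members and for 57.3% of genes. Every KO library lay above every wild-type library for each member, which held for 31.2% of tested genes. In bulk RNA, more cells with a transcript and more transcript per cell cannot be told apart. Over all genes, 1100 of 1672 calls in HCT116 were higher in KO, and 567 of 1069 where log2(FPKM + 1) was tested in place of counts.

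IFIT1, which binds RNA whose cap lacks the methyl groups of self mRNA, changed most. Its level was 83.6, 84.5 and 81.6 CPM in the HCT116 KO libraries and 7.0, 7.32 and 6.65 CPM in wild type. The KO libraries were all high and close together, and the groups lay far apart. The means of 83.2 ± 1.51 and 6.99 ± 0.334 CPM (SD, n = 3) correspond to a log2 fold change of 3.57 (SE 0.07, adjusted p = 2.9e-18 by edgeR), a fold of 11.9, which took rank 12 from the top among the 14068 genes tested.

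IFIT2, a partner of IFIT1 and IFIT3 that is also linked to cell death, stood at 20.4, 21.0 and 20.3 CPM in KO and 3.54, 3.20 and 2.97 CPM in wild type. IFIT3, which stabilises IFIT1 by binding it, stood at 22.2, 19.6 and 17.9 CPM in KO and 2.76, 2.97 and 1.98 CPM in wild type. KO libraries of both genes were high without exception, and IFIT3 was lowest in replicate 3 of each group. The log2 fold change was 2.66 for IFIT2 (SE 0.10, adjusted p = 3.2e-14 by edgeR, rank 50). It was 2.93 for IFIT3 (SE 0.13, adjusted p = 3.5e-13 by edgeR, rank 31).

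IFIT5, which acts alone and binds RNA with an uncapped phosphate end, differed least. It stood at 55.4, 51.8 and 43.9 CPM in KO and at 32.5, 31.6 and 30.7 CPM in wild type. The groups did not overlap, but KO replicate 3 was nearest to wild type. The log2 fold change was 0.67 (SE 0.08, adjusted p = 3.0e-07 by edgeR), at rank 1389. On log2(FPKM + 1) it was 0.55, under the 1.5-fold minimum, and the call was lost.

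Without replicate 3 of both HCT116 groups, the log2 fold changes were 3.55 for IFIT1, 2.62 for IFIT2, 2.86 for IFIT3 and 0.74 for IFIT5, and all 4 calls remained. IFIT1B, the neighbour of IFIT1, had 1, 1 and 0 counts in HCT116 KO and 0 in all wild-type libraries of both lines, and 0, 0 and 2 counts in U-87 MG KO. These lie below the 3 counts that a count of 0 allows, which correspond to 0.108 to 0.167 CPM (counting error only), so IFIT1B was not detectable at this depth.

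**Figure D1:**
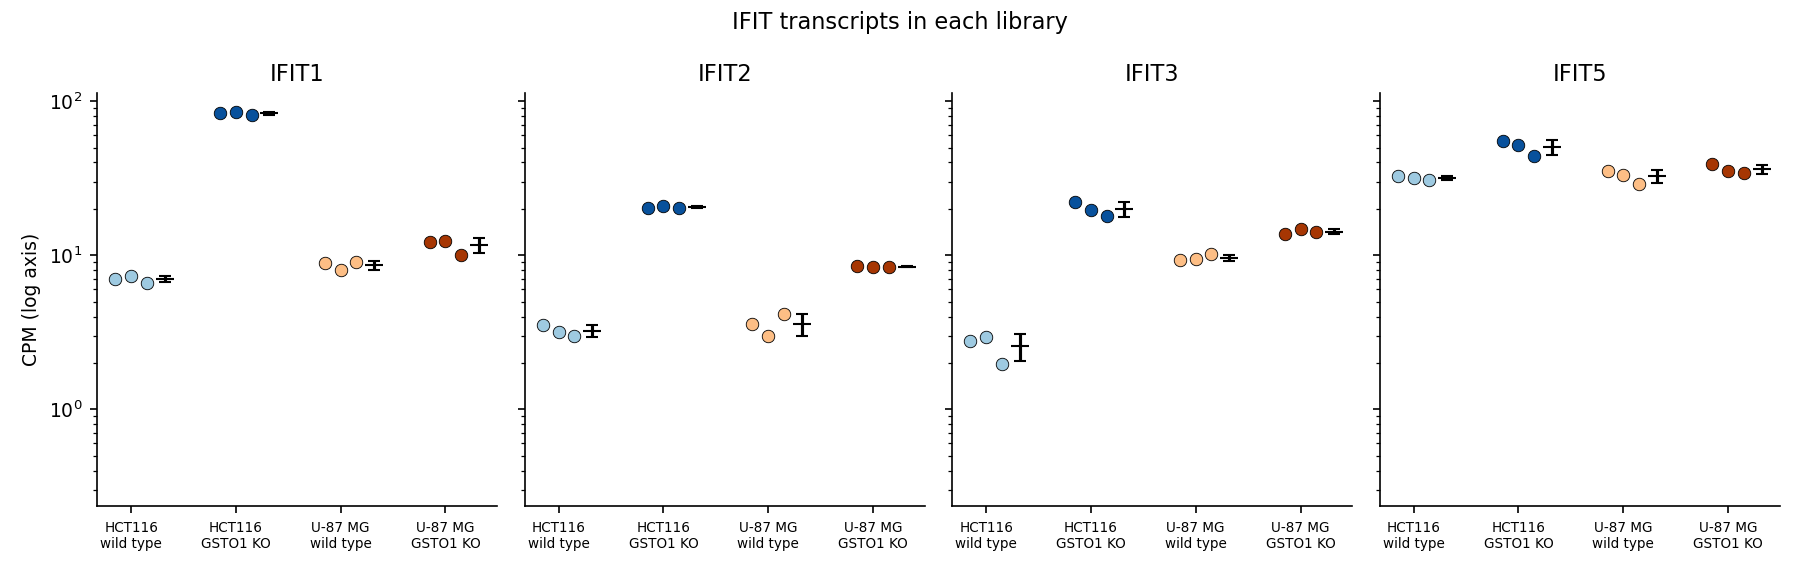
CPM of each IFIT gene (log axis) in the 12 libraries, with replicates 1 to 3 from left to right as points and the mean and SD (n = 3) as the black mark beside them. The HCT116 KO points of IFIT1, at 81.6 to 84.5 CPM, lie far above all other IFIT1 points, while the IFIT5 points of all 4 groups lie between 29.0 and 55.4 CPM.

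In U-87 MG, IFIT2 was the only member called, and edgeR put the other 3 below the 1.5-fold minimum. The called share of 1 of 4 stands beside 8.06% of the 13741 genes tested that were called higher, with 8.15% lower and 16.2% in either direction. The adjusted p was under 0.05 for 3 of 4 members and for 59.3% of genes. For 3 of 4 members every KO library lay above every wild-type library, which held for 31.8% of tested genes.

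IFIT2 stood at 8.48, 8.36 and 8.41 CPM in the U-87 MG KO libraries and 3.57, 3.01 and 4.16 CPM in wild type. The KO libraries were nearly equal and all above wild type, where replicate 3 was highest. The log2 fold change was 1.25 (SE 0.14, adjusted p = 5.2e-08 by edgeR), and 1.36 without wild-type replicate 3.

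IFIT3 stood at 13.7, 14.7 and 14.2 CPM in KO and 9.33, 9.50 and 10.2 CPM in wild type. The groups were separate but near each other. The log2 fold change was 0.55 (SE 0.09, adjusted p = 2.2e-05 by edgeR), and 0.58 without wild-type replicate 3, both just under the 1.5-fold minimum. The ratio of its mean FPKM, KO over wild type, was 1.51.

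IFIT1 stood at 12.2, 12.4 and 10.1 CPM in KO and 8.94, 7.98 and 8.99 CPM in wild type. KO replicate 3 was the nearest to wild type, and there was no overlap. The log2 fold change of 0.43 (SE 0.11, adjusted p = 0.00162 by edgeR) passed the p threshold and not the fold minimum, and it was 0.46 without wild-type replicate 3.

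IFIT5 stood at 39.0, 35.1 and 34.1 CPM in KO and 35.4, 33.2 and 29.0 CPM in wild type. Here the groups overlapped, and only KO replicate 1 exceeded all wild-type libraries. The log2 fold change was 0.15 (SE 0.08, adjusted p = 0.0941 by edgeR), and 0.08 without wild-type replicate 3. The adjusted p ran from 0.0388, without wild-type replicate 1, to 0.406 over 14 alternative settings, and only the first was under 0.05.

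The size of the KO difference itself differed between the lines. In 1 fit of all 12 libraries, the log2 fold change in HCT116 exceeded that in U-87 MG by 3.15 for IFIT1 (SE 0.13, adjusted p = 2.0e-19 by edgeR), the widest gap of the 4. The excess was 2.38 for IFIT3 (SE 0.16, adjusted p = 1.4e-13) and 1.42 for IFIT2 (SE 0.17, adjusted p = 4.7e-08). For IFIT5 it was 0.53 (SE 0.11, adjusted p = 2.1e-04), which passed the p threshold but not the 1.5-fold minimum. Without the 3 libraries that stood apart, the excess was 3.09 for IFIT1, 2.28 for IFIT3, 1.26 for IFIT2 and 0.66 for IFIT5, and IFIT5 was then called too. With all libraries, 3 of 4 members were called with a larger change in HCT116, against 9.66% of the 15613 genes tested, with 7.24% called as smaller and 16.9% either way. The adjusted p alone was under 0.05 for all 4 members and for 41.9% of genes. The order of the members changed with the line. IFIT1 led in HCT116, whereas IFIT2 led in U-87 MG.

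**Figure D2:**
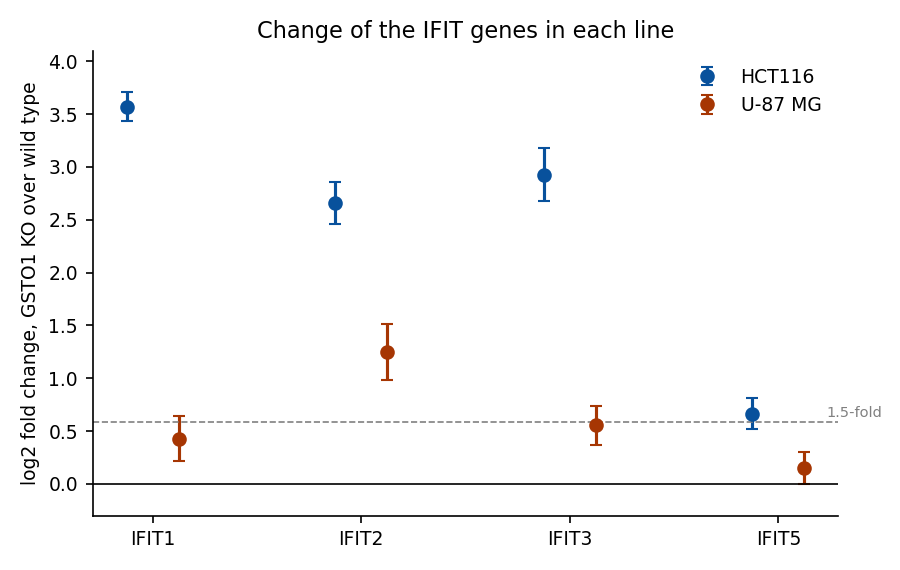
Log2 fold change of KO over wild type for each IFIT gene in HCT116 (blue) and U-87 MG (brown), with a dashed line at 1.5-fold. Bars are approximate 95% intervals (3 libraries per group) from the normal distribution, with SEs derived from edgeR's F statistic. They are narrower than the F-test implies. For IFIT5 in U-87 MG the bar runs from 0.00163 to 0.298, at an unadjusted p of 0.061 by edgeR. IFIT1 spans the widest gap between the lines, 3.57 against 0.43, and IFIT5 the narrowest, 0.67 against 0.15.

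Between the wild-type groups of the lines, IFIT3 differed most of the 4 members. Wild-type U-87 MG exceeded wild-type HCT116 in IFIT3 by 2.07 on the log2 scale (SE 0.13, adjusted p = 1.0e-15 by edgeR), the only member called in a comparison that called 27.9% of genes higher in U-87 MG and 54.5% in either direction, with an adjusted p under 0.05 for 87.4%. IFIT1 was higher by 0.47 (adjusted p = 6.8e-05), IFIT2 by 0.30 (adjusted p = 0.0497) and IFIT5 by 0.22 (adjusted p = 0.0111), all under 1.5-fold. Over 20 alternative settings the adjusted p of IFIT2 ran from 0.0157 to 0.508 and was under 0.05 in 2, and that of IFIT5 ran from 1.7e-04 to 0.390 and was under 0.05 in 15, so neither difference is settled. Without the 3 libraries that stood apart, the differences were 1.89 for IFIT3, 0.41 for IFIT1, 0.13 for IFIT2 and 0.27 for IFIT5. HCT116 was read in single and U-87 MG in paired reads, and line and read layout cannot be told apart.

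Levels of different genes can be compared only per length, for which the deposited FPKM were used. In wild-type HCT116 the family was mostly IFIT5, at 6.72 ± 0.212 FPKM (SD, n = 3), while IFIT1 stood at 1.36 ± 0.0685 FPKM. IFIT3, at 0.884 ± 0.174 FPKM, and IFIT2, at 0.791 ± 0.0730 FPKM, were not separated, since IFIT2 was the higher in replicate 3. In HCT116 KO the order was IFIT1 at 15.7 ± 0.150, IFIT5 at 10.3 ± 1.10, IFIT3 at 6.69 ± 0.654 and IFIT2 at 4.93 ± 0.0985 FPKM, the same in all 3 libraries.

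In wild-type U-87 MG the order was IFIT5 at 7.20 ± 0.702, IFIT3 at 3.45 ± 0.196, IFIT1 at 1.74 ± 0.122 and IFIT2 at 0.897 ± 0.145 FPKM. In U-87 MG KO, IFIT5 at 8.11 ± 0.540 and IFIT3 at 5.19 ± 0.192 FPKM kept their places. IFIT1 at 2.38 ± 0.248 and IFIT2 at 2.19 ± 0.0177 FPKM were not separated there, and IFIT2 was the higher in replicate 3. IFIT5 was thus the most abundant member in 3 of the 4 groups, and IFIT1 in the other.

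The summed FPKM of the 4 genes was 9.76 ± 0.494 in wild-type and 37.7 ± 1.79 in KO HCT116, a 3.86-fold difference of which IFIT1 made up 51.4%. In U-87 MG the sum was 13.3 ± 0.478 in wild-type and 17.9 ± 0.643 in KO cells, 1.34-fold, with IFIT1 making up 13.8% of the gain. In HCT116 the share of IFIT5 in the family's FPKM was 68.9 ± 1.6% in wild type and 27.4 ± 1.66% in KO, and that of IFIT1 14.0 ± 0.349% and 41.7 ± 1.79%. In U-87 MG the share of IFIT1 was 13.1 ± 0.869% and 13.3 ± 0.987%, a difference smaller than the spread between replicates. There the share of IFIT2 was 6.76 ± 1.17% in wild type and 12.2 ± 0.357% in KO.

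The ratio of IFIT1 to IFIT2 in FPKM moved in opposite directions. It was 1.73 ± 0.120 in wild-type and 3.19 ± 0.0488 in KO HCT116, and 1.97 ± 0.198 in wild-type and 1.09 ± 0.108 in KO U-87 MG, with no overlap between KO and wild type in either line. Of the 6 ratios between members, 5 did not overlap between KO and wild type in HCT116 and 4 in U-87 MG. The exceptions were IFIT2 to IFIT3 in HCT116, and IFIT1 to IFIT3 and IFIT1 to IFIT5 in U-87 MG. The 6 ratios are built from the same 4 genes and are not separate results. The share for ratios of other genes was not taken. Among single genes in U-87 MG, 31.8% had every KO library above wild type and 32.2% every one below.

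**Figure D3:**
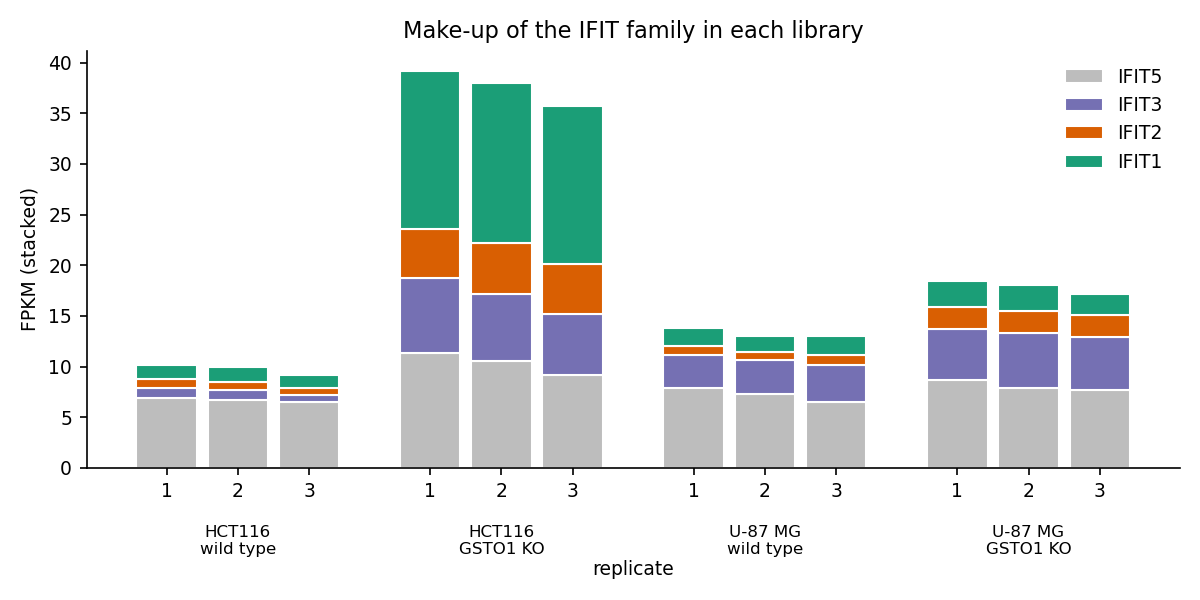
Deposited FPKM of the 4 IFIT genes stacked for each library, by group and replicate. IFIT5 (grey, bottom) is the tallest segment in wild-type HCT116 and in both U-87 MG groups, and IFIT1 (green, top) in HCT116 KO, where the stacks reach 35.7 to 39.2 FPKM.

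Most transcripts of the factors that bind the promoter element, though not IRF3 and IRF5, were called higher in HCT116 KO. Of 7 genes of ISGF3 and the IRF factors, 5 were called higher and 0 lower in HCT116, with a median log2 fold change of 1.00 against 0.01 over all genes tested. In U-87 MG 1 of 7 was called higher and 0 lower, with a median of 0.21 against 0.01. Over all genes tested, 7.82% were called higher and 4.07% lower in HCT116, and 8.06% and 8.15% in U-87 MG. This list and those below were drawn up with earlier results of these data known and are described by their counts.

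Within ISGF3, IRF9, which gives the complex its DNA contact, stood at 79.2, 72.0 and 81.9 CPM in HCT116 KO and 17.6, 18.1 and 17.9 CPM in wild type. In U-87 MG it stood at 16.3, 16.1 and 16.9 CPM in KO and 24.3, 22.1 and 26.3 CPM in wild type. IRF9 was thus high in every KO library of HCT116 and low in every KO library of U-87 MG, without overlap in either line. Its log2 fold change was 2.12 in HCT116 (SE 0.07, adjusted p = 1.8e-15 by edgeR) and -0.56 in U-87 MG (SE 0.08, adjusted p = 3.7e-06), the latter under 1.5-fold. STAT2, which carries the activating domain of the complex, had a log2 fold change of 1.00 in HCT116 and 0.12 in U-87 MG. Both IRF9 and STAT2 were called in HCT116 and not in U-87 MG, and both were called as larger in HCT116 in the test of the difference.

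Among the IRF factors, IRF7, which is itself induced by interferon, stood at 27.4, 24.1 and 30.1 CPM in HCT116 KO and 6.42, 6.09 and 6.42 CPM in wild type, a log2 fold change of 2.11 (SE 0.10, adjusted p = 6.2e-13 by edgeR). In U-87 MG its log2 fold change was 0.61 (SE 0.14, adjusted p = 8.2e-04 by edgeR), the only call of the list in that line. That call was lost in 3 of 14 alternatives, among them the one without wild-type replicate 3, at 0.53. IRF1 and IRF2 were called in HCT116, at 0.80 and 1.01, and stood at 0.21 and 0.28 in U-87 MG. IRF3, the factor that acts directly below the RNA sensors, was not called in either line, at 0.12 and 0.14. IRF5 was at 0.29 in HCT116 and at 2.78 in U-87 MG, where its mean FPKM was 0.685 in KO and 0.110 in wild type. Over all 6 libraries that mean was 0.398, under the minimum of 0.5, so IRF5 was not called.

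Of the 12 genes whose profile over the libraries was most like that of a member, 3 for each, 5 were on the interferon lists used here. Likeness was Pearson's r of log2 CPM among 10703 genes, given as a description, because the libraries share lines, depths and groups and r follows the 4 group levels. The share of the 10703 genes on those lists was not taken, so the 5 has no background beside it. For IFIT1 the 3 nearest were IFI6 (r = 0.984), HELZ2 (0.982) and TMEM133 (0.974). For IFIT2 they were PARP14 (0.987), HMGA2 (0.983) and TRIM21 (0.980), and for IFIT3 DTX3L (0.990), STAT2 (0.988) and PLD1 (0.984). For IFIT5 they were YAP1 (0.952), SNX1 (0.925) and DOPEY1 (0.922), none of them on those lists. Within the family r was highest between IFIT1 and IFIT2, at 0.927, and lowest between IFIT1 and IFIT3, at 0.685.

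A wider list held 43 other interferon-stimulated genes. In HCT116 26 of its 36 genes with enough counts were called higher and 0 lower, against 7.82% and 4.07% of all genes tested. The median log2 fold change was 1.54, against 0.01 over all genes. The list median was unchanged with IFI44L, which was at 0 in wild type, at its bound. Among the 36, OAS1, IFI44 and EPSTI1 met the FPKM minimum through KO alone. Their means were 0.339, 0.234 and 0.0865 FPKM in wild type and 8.80, 2.73 and 0.954 FPKM in KO. IFI44L, XAF1 and OAS2 had enough counts through KO alone, with 0, 0 to 1 and 4 to 9 counts in wild type. Such genes entered the calls or the median by being high in KO. In U-87 MG 10 of 36 were called higher and 5 lower, against 8.06% and 8.15% of all genes tested, with a median of 0.25 against 0.01. On log2(FPKM + 1) the 10 became 6. In U-87 MG EPSTI1 met the FPKM minimum through wild type alone, at 0.716 FPKM against 0.315 FPKM in KO. The list differed between the lines in the same direction as the members, with 28 of 39 genes called as changing more in HCT116 and 1 as changing less. Over all genes tested the shares were 9.66% and 7.24%. For this call a mean FPKM above 0.5 in 1 of the lines was enough. Some of the 39 met it through U-87 MG alone. Among them IFI44L, OAS2 and TRIM22 had means of 8.56, 2.16 and 17.3 FPKM in U-87 MG and 0.178, 0.339 and 0.288 FPKM in HCT116. Their HCT116 changes rest on few counts, with 0, 4 to 9 and 11 to 13 in the wild-type libraries. Beside IFIT1 at 3.57 in HCT116, IFI6, an antiviral protein of mitochondria, stood at 4.01 and OAS3, an RNA-activated synthetase, at 1.74. OAS1, another such synthetase, was called in both lines, at 4.84 in HCT116 and 2.88 in U-87 MG. GBP1, a guanylate-binding protein, was called lower in U-87 MG, at -1.10.

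**Figure D4:**
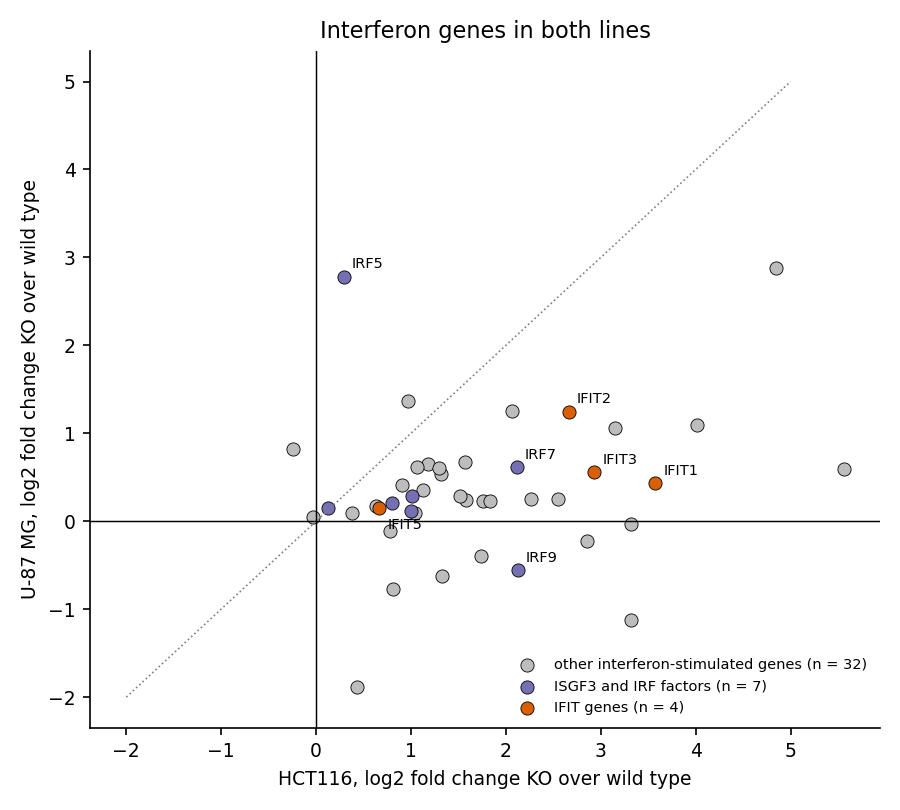
Log2 fold change of KO over wild type in HCT116 (x) and U-87 MG (y) for the IFIT genes (orange), ISGF3 and IRF factors (purple) and other interferon-stimulated genes (grey) tested in both lines, without IFI44L, and with a dotted line of equal change. All 4 IFIT genes lie above 0 in both lines and right of the dotted line, near the horizontal axis for IFIT5, and IRF9 lies below 0 in U-87 MG only.

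The start of the pathway was looked at through its ligands. All 10 interferon genes listed were at 0 counts in all 6 U-87 MG libraries, and IFNB1, IFNA1, IFNA2, IFNK, IFNW1 and IFNG also in all 6 HCT116 libraries, each allowing up to 0.108 to 0.167 CPM per library. The rest were named after their values were seen. The type III interferons IFNL1, IFNL2 and IFNL3 together had 12, 19 and 20 counts in HCT116 KO and 1, 3 and 0 in wild type. Without the filter on low counts, edgeR gave IFNL1 a log2 fold change of 3.37 (SE 0.78, adjusted p = 7.0e-05 over 19856 genes). IFNL2 and IFNL3 are near-identical copies whose reads may be split between them. IFNE, an epithelial type I interferon, went the other way, with 1, 1 and 1 counts in KO and 12, 13 and 13 in wild type (log2 fold change -3.31, SE 0.75, adjusted p = 4.5e-05 by edgeR). Over the 6 HCT116 libraries the mean FPKM was 0.300 for IFNL1, which reached 0.551 in KO, and lower for the other 3, so none was called.

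IFNLR1, the specific chain of the type III interferon receptor, had a median of 3.06 FPKM in HCT116 (2.72 to 3.69, 6 libraries). In U-87 MG it had 4, 2 and 1 counts in wild type and 12, 11 and 22 in KO, at mean levels of 0.0197 and 0.133 FPKM, without overlap and too few for the test within that line. Its KO difference was called as larger in U-87 MG in the fit of both lines, by 2.76 on the log2 scale (SE 0.53, adjusted p = 8.2e-05 by edgeR). That call met the FPKM minimum through HCT116 alone, at a mean of 3.09 FPKM against 0.0764 in U-87 MG. The difference itself rests on the few U-87 MG counts. Of the receptors and JAK kinases, 0 of 9 tested were called in HCT116, where the log2 fold changes lay between -0.21 and 0.28. In U-87 MG 1 of 8 was called, IFNGR2, a chain of the type II receptor, at 0.72. By DESeq2 the counts were also 0 and 1. An unadjusted p under 0.05 by edgeR was found for 2 of the 9 in HCT116, 1 in each direction. In U-87 MG it was found for 4 higher and 2 lower of the 8. Over all genes tested, edgeR called 11.9% in HCT116 and 16.2% in U-87 MG in either direction.

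Among 9 sensors of foreign nucleic acid and their adaptors, 5 were called higher and 0 lower in HCT116, and 5 higher and 1 lower in U-87 MG. Over all genes tested, 7.82% were called higher and 4.07% lower in HCT116, and 8.06% and 8.15% in U-87 MG. The cytosolic RNA sensors DDX58 and IFIH1, with DHX58, had log2 fold changes of 2.43, 2.55 and 2.49 in HCT116. In U-87 MG DDX58 was at -0.29 and not called, IFIH1 was at 0.60 and DHX58 at 1.36. MAVS, the adaptor of these sensors, was at 0.17 and not called in HCT116 and was at 0.59 in U-87 MG. TMEM173, the adaptor of DNA sensing known as STING, was called at 1.85 in U-87 MG. Its mean FPKM there was 0.305 in wild type and 1.07 in KO, so it met the minimum of 0.5 through KO alone. DHX58 did so in HCT116, at 0.189 FPKM in wild type and 1.04 FPKM in KO. TLR3, an endosomal RNA receptor, was called at 0.62 in U-87 MG, and TRAF3, a signalling adaptor, was the 1 called lower there, at -0.67. The calls of IFIH1 and MAVS in U-87 MG lie at the edge of the 1.5-fold minimum and were lost in 5 and 7 of 14 alternatives, and those of TLR3 and TRAF3 in 5 and 2.

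Of 6 negative regulators of interferon signalling, USP18 and SOCS1, both induced by interferon as feedback, were called higher in HCT116, at 1.43 and 1.87. Over all genes tested, 7.82% were called higher in HCT116 and 8.15% lower in U-87 MG. USP18 was called lower in U-87 MG, at -1.09, so this inhibitor, like IRF9, was high in one KO and low in the other.

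The RNA end that some IFIT proteins read and the machinery that some of them bind were looked at through further lists. Of 8 genes that form, methylate or remove the mRNA cap, which decides whether IFIT1 can bind, 0 were called in either line by edgeR or DESeq2, and their log2 fold changes lay between -0.47 and 0.26. An unadjusted p under 0.05 was found for 2 higher and 3 lower in HCT116 and for 2 higher and 0 lower in U-87 MG. The called share of all genes tested was 11.9% in HCT116 and 16.2% in U-87 MG. Of 12 tested subunits of eIF3, the initiation factor that IFIT1 and IFIT2 bind, 0 were called in HCT116 by edgeR or DESeq2, with an unadjusted p under 0.05 for 1 higher and 6 lower. In U-87 MG EIF3D and EIF3L, both on chromosome 22, were called lower, at -1.47 and -1.18, as were 8.15% of all genes tested in that line. All 12 tested subunits were lower there in every KO library than in any wild-type library, which held for 32.2% of tested genes, with a median log2 fold change of -0.33.

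Of the neighbours of the cluster, 6 were tested in HCT116, where 7.82% of all genes tested were called higher and 4.07% lower. ACTA2, a smooth muscle actin, and FAS, a death receptor, were called higher, at 0.76 and 0.69, and both calls were lost on log2(FPKM + 1), at 0.56 and 0.52. KIF20B, a mitotic kinesin, was called lower, at -1.10 (SE 0.08, adjusted p = 2.7e-10 by edgeR). LIPA, the lysosomal lipase next to IFIT2, was at 0.42, STAMBPL1 at 0.29 and PANK1 at -0.30, none of them called. In U-87 MG 0 of 8 tested neighbours were called by edgeR or DESeq2, with an unadjusted p under 0.05 for 1 higher and 2 lower. Their median log2 fold change was -0.02, with KIF20B at -0.56 and ACTA2 at -0.58. Over all genes tested in that line, edgeR called 16.2% and the median was 0.01.

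**Figure D5:**
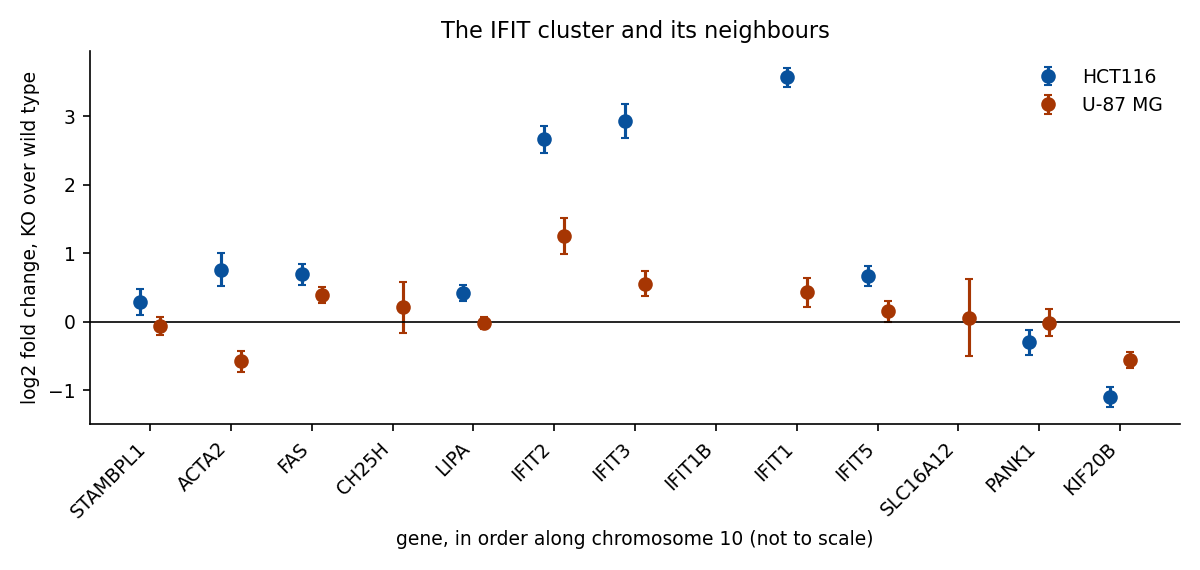
Log2 fold change of KO over wild type for the genes around the IFIT cluster in their order on chromosome 10, in HCT116 (blue) and U-87 MG (brown). Bars are approximate 95% intervals, made as those of the IFIT genes above. IFIT1B has no point because it was not tested, and CH25H and SLC16A12 have one in U-87 MG only. IFIT2, IFIT3 and IFIT1 stand above every neighbour in HCT116, whose highest is ACTA2 at 0.76.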

How the data were processed

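RNA-seq of 4 groups of 3 libraries was analysed. Per the submitters' processing notes, the authors aligned reads to GRCh38 with STAR 2.5.2, made the deposited counts with featureCounts 1.6.1 and the deposited FPKM with Cufflinks 2.2.1. The sources used here do not give strand setting, treatment of multiply aligned reads or the counting of pairs. Here edgeR 4.0.16 (R 4.3.3; TMM, filterByExpr, robust quasi-likelihood F-test, Benjamini-Hochberg over all genes tested) compared KO with wild type within each line, and 1 fit of 12 libraries gave the difference between lines and the wild-type contrast. A call needed a mean FPKM above 0.5, a fold above 1.5 and an adjusted p below 0.05, the study's thresholds. In comparisons across lines the mean FPKM had to pass in at least 1 line, over wild-type libraries for the wild-type contrast. The SEs given with edgeR were derived from the log2 fold change and the F statistic. CPM used TMM-scaled library sizes. Depth was 17814142 to 28097179 counts. Alternatives were DESeq2 1.42.0, other scaling and filters, limma 3.58.1 on log2(FPKM + 1) and log2(FPKM + 0.1), a replicate block and leaving out libraries. Scripts were tested on simulated data. Members and lists were chosen with earlier results of these data known. Named genes were the members, GSTO1, ISGF3 and IRF factors, cluster neighbours, up to 4 called genes per other list and line by adjusted p, and the 3 genes most like each member; others are named after their values were seen. One listed symbol was matched by an older name, and 1 listed gene is not reported here. Sequences were those of RefSeq and positions those of GENCODE release 44.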

Additional observations from a re-analysis of the deposited data

Results flagged for a closer look

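The KO difference was unequal in the lines by the interaction test of edgeR for all 4 members and for 6 of the 7 ISGF3 and IRF factors, given as the log2 fold change in HCT116 minus that in U-87 MG. It was 3.15 for IFIT1, 1.42 for IFIT2, 2.38 for IFIT3 and 0.53 for IFIT5. It was 0.89 for STAT2 and 2.69 for IRF9. It was 0.60 for IRF1, 0.74 for IRF2 and 1.51 for IRF7, and -2.47 for IRF5, the only one with a larger value in U-87 MG. IRF5 met the FPKM minimum through HCT116 alone, at a mean of 5.06 FPKM against 0.398 in U-87 MG. Its wild-type U-87 MG libraries held 3 to 11 counts. The 1.5-fold minimum was missed for IRF1 in 10 of 20 alternatives and for IRF2 in 2 of 20. The adjusted p of these 10 ran from 1.0e-19 for IRF9 to 2.1e-04 for IFIT5, against an adjusted p under 0.05 for 41.9% of all 15613 genes. Line, read layout and clone cannot be told apart in these differences.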

How the results depend on the processing

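The direction of every member in every comparison held under all alternatives run. With limma on log2(FPKM + 1) the HCT116 calls numbered 1069, or 1092 with no filter on the mean FPKM, against 1672, and IFIT5 in HCT116 stood at 0.55 under both, below the 1.5-fold minimum, with its p threshold still passed. A pseudocount of 1 shrinks folds of low genes by construction. Leaving out 1 library at a time gave 3.53 to 3.60 for IFIT1, 2.61 to 2.73 for IFIT2, 2.78 to 3.05 for IFIT3 and 0.59 to 0.76 for IFIT5 in HCT116. It gave 0.37 to 0.51, 1.12 to 1.36, 0.53 to 0.58 and 0.08 to 0.21 in U-87 MG. The difference between lines for IFIT5 ran from 0.46 to 0.61, and passed 1.5-fold only without KO replicate 3 of HCT116, at 0.61, and without all 3 libraries that stood apart, at 0.66, an alternative chosen after seeing the data. Of 40 calls of other named genes, 31 held under every alternative. Replicate numbers were not taken as pairs, since same-numbered deviations correlated at 0.101, 0.0844 and 0.342 in HCT116 and 0.0626, -0.00235 and -0.0143 in U-87 MG. In HCT116 replicate 3 of each group correlated best with the other replicate 3, against -0.167 to -0.232 with the rest. By contrast, KO replicate 1 correlated best with wild-type replicate 2, at 0.181. Deviations from the mean of the 3 libraries of a group sum to 0, so correlations of opposite sign are partly built in. With a replicate block IFIT1 in HCT116 was 3.57 and IFIT2 in U-87 MG 1.24, calls numbered 1680 and 2221, and no member's call changed. Interferon genes at 0 to 20 counts are limited by depth.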
